A study of Hordeum vulgare with 28 samples.

Results

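A set of 58 barley genes, of 25592 in the count table, had more transcript at 2 h after mechanical wounding and less at 24 h of feeding by the grass mite *O. pratensis*. The members were chosen by these values themselves. CPM (a gene's count per 1e6 counts of its library) were averaged over the 4 replicates of a group, and a gene entered when log2((mean CPM + 0.5) / (mean control CPM + 0.5)), called the level ratio here, was at least 1 at 2 h after wounding and at most -1 at 24 h of *O. pratensis*. The members made up 1.97% of the 2941 genes that met the wounding condition and 3.54% of the 1637 genes that met the mite condition. Of the other combinations, 1601 genes were at least 1 in both groups, 775 were at most -1 in both, and 58 were at most -1 after wounding and at least 1 with the mite.

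The libraries were made from poly(A) RNA of leaf number 5 of barley plants (*Hordeum vulgare*, Morex variety) at 30 days of age, in 7 groups of 4 biological replicates. Control leaves (C) carried only the TangleFoot wax barriers that enclosed the leaf section in every group. Leaves were exposed to adult females of *O. pratensis*, a grass specialist (BGM in the labels), for 2 h (O2) or 24 h (O24). Others were exposed to adult females of the generalist *T. urticae* (TSSM) for 2 h (T2) or 24 h (T24). Wounded leaves were pressed gently between pieces of 60 grit sandpaper 2 h (W2) or 24 h (W24) before collection. There were 400 mites per leaf section at 2 h and 200 at 24 h, so feeding time and mite number cannot be told apart in a comparison of T24 with T2. All leaves were collected together, and the controls were a single group for both times. Library totals, in units of 1e6 counts, ran from 11.7 to 38.3, and T2 was the shallowest group, at 11.7 to 17.4. In such whole leaf sections, fewer cells of a type and less RNA per cell cannot be told apart. Of the markers of green leaf tissue, 9 nuclear photosynthesis genes had control means of 105.7 to 8605.1 CPM. Of 67 plastid-encoded genes, the other markers, 51 had enough counts to be tested, and some had no count in any group.

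Spider mites pierce single leaf cells and empty them, whereas the sandpaper wounding was instantaneous damage at the start of the treatment. The study describes the wounding as mimicking the dispersed pattern of mite damage. Wounded leaves make jasmonate, the hormone of the wound response, and leaves that lose water make abscisic acid, under which dehydrins and related protective proteins accumulate. Dehydrins are hydrophilic proteins that keep membranes and enzymes intact in drying or chilled cells, and they are used as readouts of both stresses. Jasmonate and abscisic acid signalling share some of their targets in leaves, so a gene can answer to damage, to drought or to both.

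The level ratio that chose the members ran from 1.02 to 4.62 in W2, with a median of 1.55, and from -4.01 to -1.005 in O24, with a median of -1.46. The W2 ratio was at least 2 for 22 members and at least 3 for 10, and the O24 ratio was at most -2 for 7, of which 2 also had a W2 ratio of at least 3. The members just inside had W2 ratios of 1.019, 1.021 and 1.054, against 0.978, 0.968 and 0.956 for the genes just outside, and O24 ratios of -1.005, -1.011 and -1.020, against -0.988, -0.962 and -0.934. With edgeR's quasi-likelihood test, in which a call needed both an adjusted p (Benjamini-Hochberg) below 0.01 and a log2 fold change larger than 1 in size, 54 of 58 members were called higher in W2 than in C, where 19.3% of all 16948 genes tested were called higher and 12.6% lower. In O24 against C, 57 members were called lower, where 15.6% of all genes were called lower and 20.0% higher. Both contrasts made the selection, and nothing is read from these counts. The member that was not called in O24, MLOC_76181, had 1.51 ± 0.944 CPM in C (SD, n = 4) and 0.439 ± 0.343 in O24 (SD, n = 4), and is named here after its values were seen. It was not called in W2 either, nor were MLOC_25784, MLOC_51139 and MLOC_78997, also named after their values were seen. In W2, MLOC_78997 had 9.26 ± 10.9 CPM and MLOC_25784 had 4.72 ± 5.04 CPM (SD, n = 4 each). Their W2 replicate 3 had log2 ratios to the control mean of 2.973 and 2.665, and no other W2 leaf exceeded 0.589 and 0.799.

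**Figure D1:**
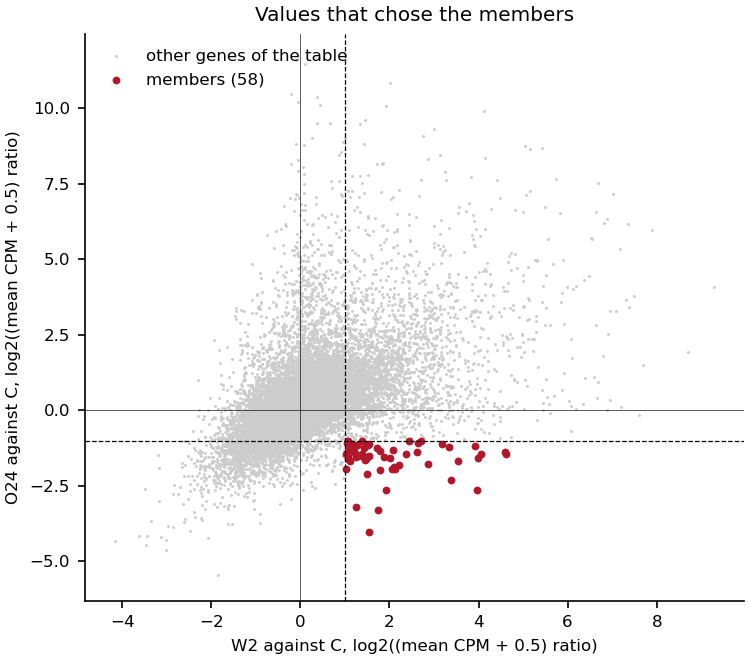
Level ratio, log2((mean CPM + 0.5) / (mean control CPM + 0.5)), of every gene with a count in W2 (horizontal axis) and in O24 (vertical axis). Red points are the 58 members, grey points the other genes, and dashed lines the limits of 1 and -1 that chose the members, which reach 4.62 in W2 and -4.01 in O24.

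A role could be given only through the study's pairing of barley genes with Arabidopsis genes, which was held in part (1998 pairs). Of the 58 members, 4 were paired with an Arabidopsis locus, 7 lay within the range of identifiers covered and had no partner, and 47 lay outside it. The roles given below are those known in Arabidopsis.

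MLOC_14884 was paired with AT1G20440, which encodes COR47, a dehydrin of the late embryogenesis abundant proteins that accumulates under dehydration, cold and abscisic acid. Its 4 control leaves had 303.9, 178.8, 357.5 and 274.8 CPM, and its 4 W2 leaves had 2360.7, 3009.7, 3446.5 and 2778.8 CPM. Every wounded leaf was above every control leaf, with a mean 10.4-fold higher. The O24 leaves had 62.1, 63.8, 59.3 and 38.8 CPM, all under the lowest control, with a mean 4.98-fold lower. These are the values that chose the gene. In groups outside the choice, the dehydrin gene had 371.1, 207.4, 373.5 and 203.1 CPM in O2 and 294.7, 229.2, 238.8 and 279.0 CPM in T2, both overlapping the controls. T24 leaves had 133.3, 121.5, 128.6 and 90 CPM and W24 leaves had 509.0, 419.9, 515.7 and 459.8 CPM. The T24 and W24 leaves overlapped neither each other nor the controls, with T24 on the low side and W24 on the high side.

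MLOC_10076 was paired with AT3G14350, which encodes SRF7, a leucine-rich repeat receptor-like kinase of the STRUBBELIG family. It had 29.3, 35.5, 35 and 31.3 CPM in C, 85.3, 53.7, 62.6 and 66.6 CPM in W2, and 13.1, 13.3, 10.4 and 10.1 CPM in O24. Outside the choice it had 34.4, 32.5, 27.5 and 27.1 CPM in T2, 22.8, 25.1, 22.2 and 19 CPM in T24, and 36.7, 34.7, 25.6 and 35.8 CPM in W24. The receptor kinase gene was thus near its control level in T2 and W24, and every T24 leaf was below every leaf of those 2 groups.

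MLOC_12684 was paired with AT4G16146, a gene of the endosulfine family, small phosphoproteins whose yeast and animal relatives inhibit protein phosphatase 2A. Its control leaves had 8.19, 3.65, 8.29 and 11.2 CPM, its T2 leaves 7.07, 8.88, 8.04 and 8.01 CPM, its T24 leaves 4.78, 6.48, 4.76 and 4.86 CPM, and its W24 leaves 11.8, 11.7, 10.7 and 9.38 CPM. The T24 leaves were below all T2 and all W24 leaves but overlapped the controls, through a single low control. MLOC_1021, paired with AT4G30830, was the least abundant of these 4, with means of 1.97 ± 0.243 CPM in C, 5.45 ± 0.988 in W2, 0.63 ± 0.0524 in O24, 1.45 ± 0.331 in T2, 1.09 ± 0.169 in T24 and 2.23 ± 0.437 in W24 (SD, n = 4 each). Its T24 and T2 leaves overlapped, at 0.837 to 1.19 CPM and 1.15 to 1.92 CPM, and its W24 leaves lay above all T24 leaves.

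**Figure D2:**
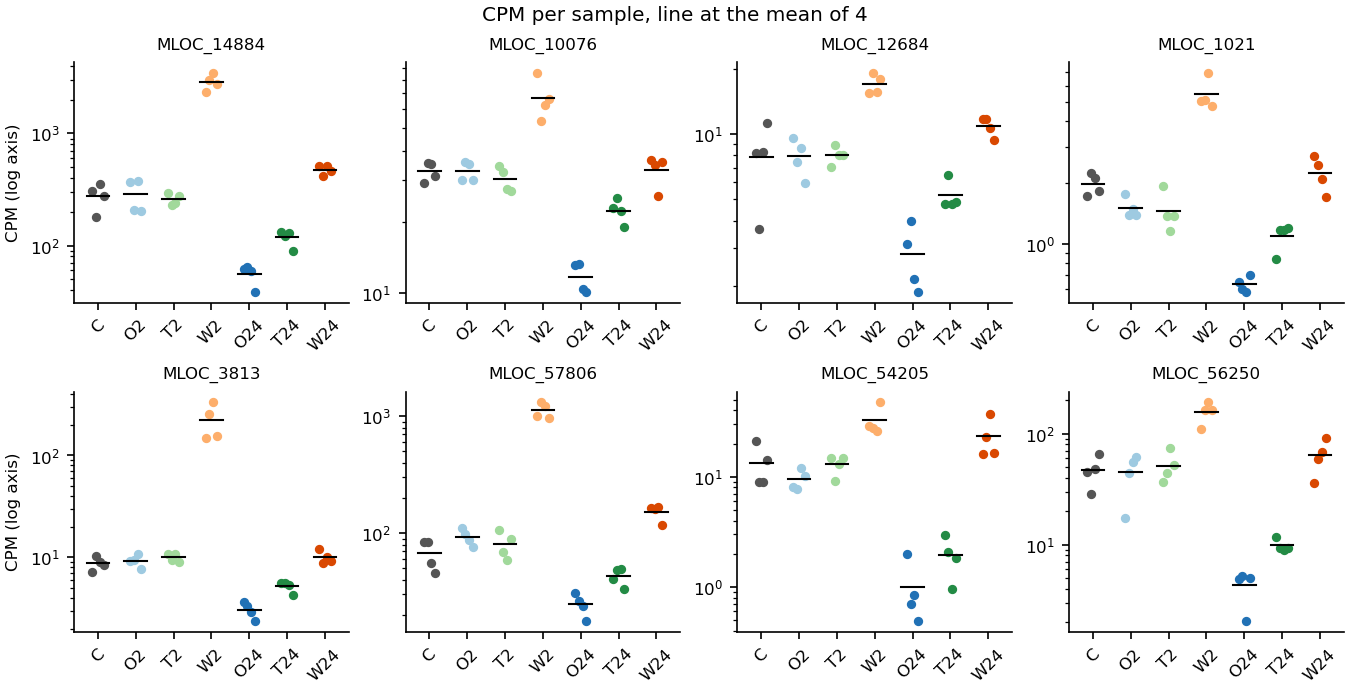
CPM per sample (log axis) of 8 named members in the 7 groups, with points for the 4 samples and a line at their mean. W2 and O24 chose the genes, and the T24 mean lies below the T2 and W24 means in each panel.

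With 2 h of mites, the median level ratio of the members was 0.00 in O2 (range -0.73 to 0.89) and -0.04 in T2 (range -0.60 to 1.38), against 0.02 and 0.00 over all genes with a count. In T2 the ratio was at least 1 for 2 members, MLOC_552 (1.38) and MLOC_37090 (1.09), which are named after their values were seen. At 24 h the median was -0.54 in T24 (range -2.49 to 0.54) and 0.40 in W24 (range -1.18 to 2.41), against 0.07 and 0.06 over all genes. The mean log2 change over the 58 members, taken leaf by leaf, was -0.56, -0.55, -0.62 and -0.79 in T24 and 0.49, 0.34, 0.53 and 0.37 in W24, beside -0.03, -0.21, 0.04 and -0.00 in C. No T24 or W24 leaf lay within the range of the controls, and the O2 leaves (-0.04, 0.02, 0.06 and -0.14) and T2 leaves (-0.01, -0.10, 0.09 and -0.01) lay in or just above it. The groups of the rule stood at 1.67 to 2.23 in W2 and at -1.75 to -1.47 in O24. Counted gene by gene, 48 to 53 of the 58 members were below their control mean in each T24 leaf and 11 to 15 were in each W24 leaf, against 23 to 33 in each control leaf.

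**Figure D3:**
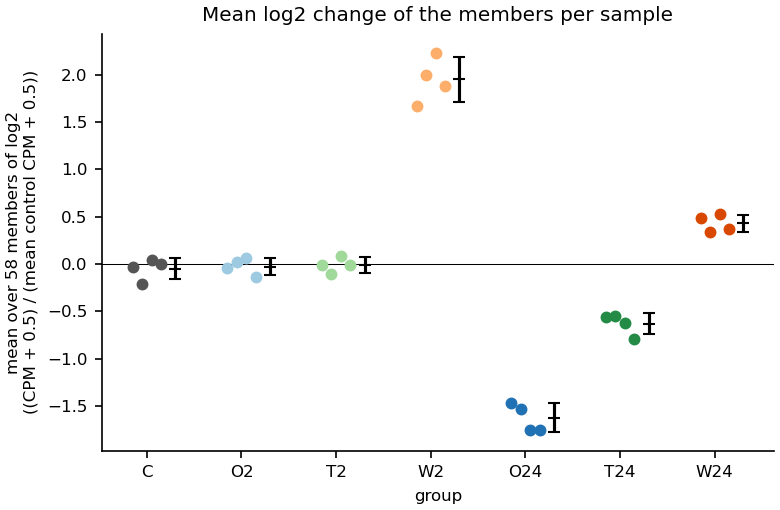
Mean over the 58 members of log2((CPM + 0.5) / (mean control CPM + 0.5)) in each of the 28 leaf samples, by group. Points are samples and the bar beside them is the mean with its SD (n = 4); W2 and O24 chose the members, T24 lies at -0.79 to -0.55 and W24 at 0.34 to 0.53.

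The mean of T24 was below that of C for 54 members, and the mean of W24 was above that of C for 49. These means are CPM by library totals. By edgeR's log2 fold changes, which used TMM factors for scaling, 56 members were below C in T24. By the same measure 41 were above C in W24 and 17 below. As a share of all counts, the members took 0.358% ± 0.049 in C, 1.388% ± 0.175 in W2, 0.358% ± 0.019 in W24, 0.236% ± 0.026 in T24 and 0.135% ± 0.016 in O24 (SD, n = 4 each). These sums lean on 1 gene, MLOC_18664, which held 45.9% of the members' counts in C. Without it the shares were 0.193% ± 0.020 in C, 0.957% ± 0.134 in W2, 0.281% ± 0.024 in W24, 0.115% ± 0.008 in T24 and 0.053% ± 0.007 in O24 (SD, n = 4 each), so that W24 was above C only without this gene.

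**Figure D4:**
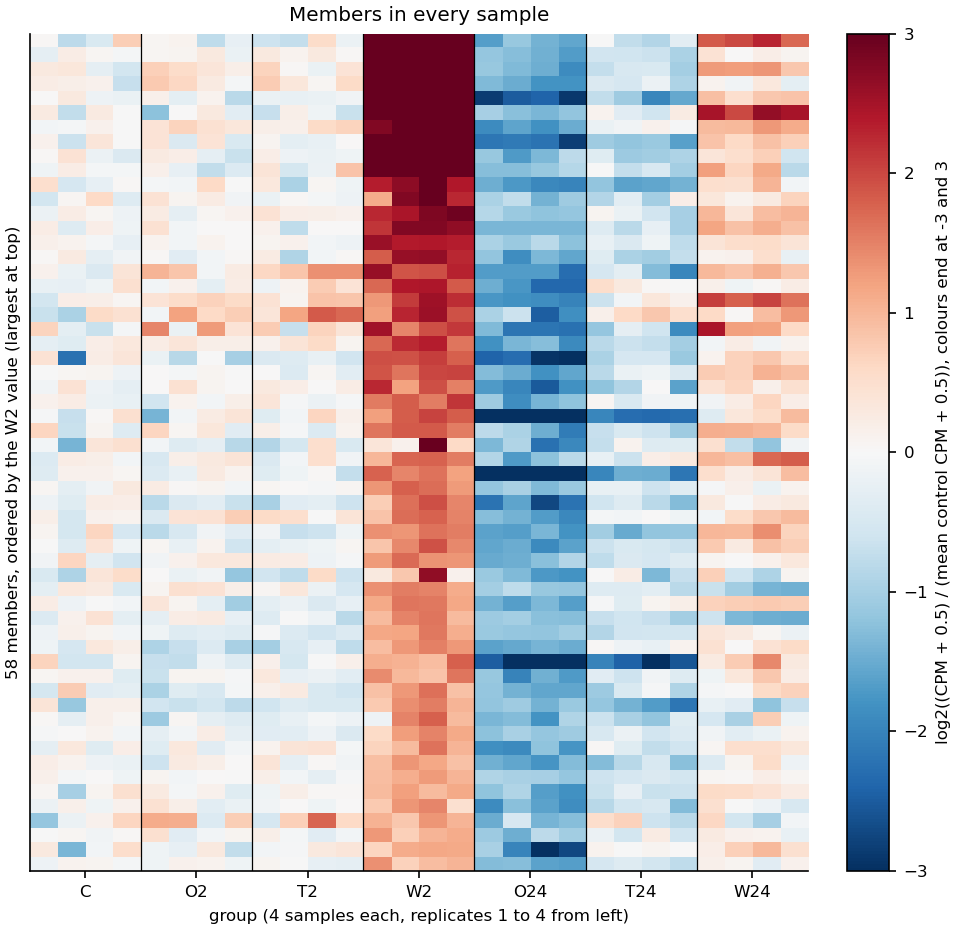
Heat map of log2((CPM + 0.5) / (mean control CPM + 0.5)) for the 58 members (rows, ordered by their W2 value) in 28 samples (columns, 4 per group), with colours ending at -3 and 3. T24 columns are mostly pale blue and W24 columns mostly pale red, and the highest W24 ratio, 2.41, belongs to a member with a W2 ratio of at least 3.

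Feeding by *T. urticae* gave contrasts that share no library with the choice of members. Between T2 and T24, 18 of 58 members fell (31.0%), where 3.26% of all genes tested were called lower, and 0 rose, where 10% of all genes were called higher. The members' log2 fold changes ran from -2.88 to 0.37 with a median of -0.82, against a median of 0.03 over all genes, and 55 of 58 were negative. DESeq2 called 19 members lower and 0 higher, and 42 members had an unadjusted p under 0.05, a level that 56.7% of all genes reached. The count depended on how libraries were scaled. With library totals alone in place of TMM factors, the median of all genes in T24 against T2 moved to 0.21, 11 members were called lower, where 1.69% of all genes then were, and the members' median was -0.62.

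At 24 h, mite-fed leaves were also compared with wounded leaves. In T24 against W24, 35 of 58 members were lower (60.3%), where 5.04% of all genes tested were called lower, and 0 were higher, where 8.86% of all genes were. DESeq2 called 35 lower and 0 higher. The log2 fold changes ran from -3.61 to 0.54 with a median of -1.15, against -0.00 over all genes, and 54 were negative. Both contrasts use the T24 libraries, and 17 members were called in both, 1 only against T2, 18 only against W24 and 22 in neither. Of the 35 members lower in T24 than in W24, 17 were also called lower in T24 than in C. For 8 of the 35, W24 was called higher than C. MLOC_74934 was called in both of those contrasts with C, and 11 members were called in neither. Among all genes tested, 5.79% were called lower in T24 than in C and 5.72% higher in W24 than in C. The contrasts with C share the control libraries with the choice of members, and nothing is read from these counts.

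**Figure D5:**
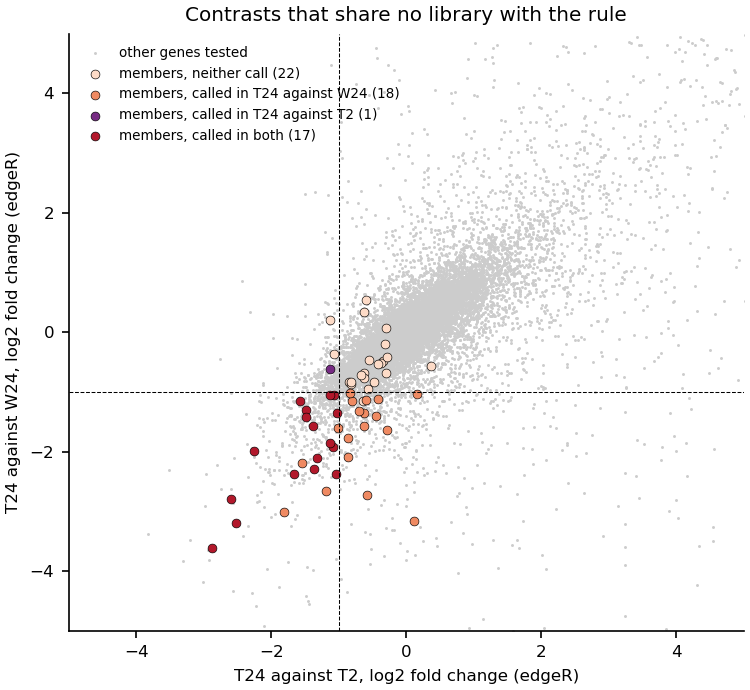
Log2 fold changes from edgeR for T24 against T2 (horizontal axis) and T24 against W24 (vertical axis), which share the T24 libraries. Coloured points are the 58 members by call, grey points the other genes tested (246 lie outside the axes), and dashed lines mark -1; 17 members were called in both contrasts and 22 in neither.

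Among the named members, the dehydrin gene MLOC_14884 fell by 1.32 ± 0.23 on the log2 scale (SE) from T2 to T24 (adjusted p = 5.14e-05) and was lower by a log2 fold change of -2.11 ± 0.24 in T24 than in W24 (adjusted p = 1.06e-07). The T2 mean was 2.2-fold and the W24 mean 4.02-fold the T24 mean of 118.4 ± 19.5 CPM (SD, n = 4). The receptor kinase gene MLOC_10076 had log2 fold changes of -0.63 ± 0.14 (adjusted p = 0.000442) and -0.68 ± 0.14 (adjusted p = 0.000177), with sizes under the limit of 1, so that it was not called. The endosulfine gene MLOC_12684 had -0.80 ± 0.27 against T2 (adjusted p = 0.0144), which was not called, and was lower than in W24, at -1.16 ± 0.26 (adjusted p = 0.000566). MLOC_1021 had -0.59 ± 0.22 against T2 (adjusted p = 0.0255), which was not called, and was lower than in W24, at -1.14 ± 0.20 (adjusted p = 3.80e-05).

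Of the members without an Arabidopsis partner, the pair with the largest W2 ratios among those with at least 5 CPM in C were MLOC_3813 and MLOC_57806. MLOC_3813 had 7.23, 10.3, 9.08 and 8.4 CPM in C and 147.3, 253.5, 331.5 and 155.2 CPM in W2, a mean 25.4-fold higher. At 24 h after wounding it had 12, 8.82, 10.2 and 9.28 CPM, overlapping the controls again. Its T24 leaves, at 5.67, 5.61, 5.42 and 4.31 CPM, lay below all T2 leaves, at 10.8, 9.4, 10.8 and 9.05 CPM, and it fell between them by 1.13 ± 0.24 on the log2 scale (adjusted p = 0.000356). MLOC_57806 had 83.4, 85, 56.1 and 45.6 CPM in C and 1011.8, 1313.1, 1234.7 and 975.7 CPM in W2, a mean 16.8-fold higher. In W24 it was called higher than in C, at 163.1, 160.5, 168.6 and 118.0 CPM, with a log2 fold change of 1.07 ± 0.20 against C (adjusted p = 0.000344). Its T24 leaves, at 41, 48.1, 49.4 and 33.2 CPM, lay below all T2 and W24 leaves, with log2 fold changes of -1.09 ± 0.20 (adjusted p = 9.16e-05) and -1.93 ± 0.21 (adjusted p = 4.05e-08). With library totals alone, the fall from T2 to T24 had a size under 1 for both genes (-0.94 for MLOC_3813 and -0.92 for MLOC_57806).

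MLOC_54205 and MLOC_56250 were named for the lowest T24 against T2 values among such members, so that these values are a description. MLOC_54205 had 21.2, 8.9, 8.91 and 14.1 CPM in C, 14.8, 9.14, 13.1 and 14.9 CPM in T2, and 2.96, 2.08, 0.952 and 1.83 CPM in T24, a T2 mean 6.64-fold the T24 mean. W2 leaves of this gene had 28.9, 27.8, 25.8 and 47.2 CPM and W24 leaves 16.2, 23.1, 36.9 and 16.5 CPM, so the wounded leaves of both times overlapped. MLOC_56250 had 36.4, 44.1, 73.7 and 52.5 CPM in T2 and 11.8, 9.29, 8.93 and 9.32 CPM in T24, a T2 mean 5.26-fold the T24 mean, and 36, 59.5, 68.6 and 91.2 CPM in W24. Both genes were also among the lowest in O24, with level ratios of -3.20 and -3.30.

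Genes that met only 1 of the conditions of the choice were set beside the members in the same contrasts. Of 2853 tested genes that met the W2 condition and not the O24 condition, 13 (0.456%) were lower and 704 (24.7%) higher in T24 than in T2, with a median log2 fold change of 0.54, and 188 (6.59%) were lower and 632 (22.2%) higher in T24 than in W24, with a median of 0.41. Of 1579 genes that met the O24 condition and not the W2 condition, 466 (29.5%) were lower and 0 higher in T24 than in T2, with a median of -0.85. That share was close to the 31.0% of the members. In T24 against W24, 411 of these 1579 genes were lower and 1 was higher, with a median of -0.76, beside 35 of 58 and -1.15 for the members. No test was made of the difference between these sets of genes.

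At 2 h no member differed detectably between the mites. In O2 against T2, edgeR called 0 members higher and 0 lower, and the background was 0% in each direction, with no gene of the table called by edgeR. DESeq2 also called 0 members, and 0 members had an unadjusted p under 0.05, a level that 3.05% of all genes reached. The members' log2 fold changes lay between -0.86 and 0.55 with a median of -0.03.

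The contrasts of the remaining groups with C share their control libraries with the choice of members, and their values are given beside each other without being read as support. In O2 against C, 0 members were lower, where 0.0177% of all genes were called lower, and 0 were higher, where 2.63% were. DESeq2 called 0 in each direction and 8 of 58 members had an unadjusted p under 0.05, beside 14.6% of all genes. Without control replicate 2, 2 members were called lower in O2. In T2 against C, 0 members were lower, where 0.0236% of all genes were, and 0 were higher, where 2.47% were, and 7 of 58 had an unadjusted p under 0.05, beside 13% of all genes. DESeq2 called 1 member higher in T2, and 0 lower. That member was MLOC_37090, named after its values were seen, with 9.55, 7.58, 6.3 and 11.5 CPM in C and 13.7, 15.9, 23.4 and 23.5 CPM in T2. Every T2 leaf was above every control leaf (edgeR log2 fold change 1.09 ± 0.30, adjusted p = 0.0299), and at 24 h of *T. urticae* it had 6.01, 7.01, 3.22 and 1.88 CPM, of which only 1 leaf lay within the range of the controls.

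In T24 against C, 17 members were lower (29.3%), where 5.79% of all genes were called lower, and 0 were higher, where 14.1% were. With library totals alone 10 were lower, where 3.20% of all genes then were. DESeq2 called 18 lower and 0 higher, and 43 members had an unadjusted p under 0.05, beside 64.4% of all genes. In W24 against C, 8 members were higher (13.8%), where 5.72% of all genes were called higher, and 2 were lower (3.45%), where 0.277% were. Without control replicate 4, or without W24 replicate 3, 5 members were called higher in W24. Of the 10 members with a W2 ratio of at least 3, 4 were called higher in W24 and 9 were lower in T24 than in W24. Of the 7 with an O24 ratio of at most -2, 0 were called higher in W24 and 7 were lower in T24 than in W24. Among all genes tested, 5.04% were called lower in T24 than in W24. Both subsets were cut by the values that chose the members, and nothing is read from their counts. DESeq2 called 8 members higher in W24 than in C.

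The 2 members lower in W24 than in C were MLOC_18664 and MLOC_10369, named after their values were seen. MLOC_18664, the member with the most counts, had 1353.1, 2067.7, 1981.2 and 1208.0 CPM in C, 4241.9, 4823.4, 4640.9 and 3559.6 CPM in W2, and 1039.5, 801.9, 625.8 and 607.9 CPM in W24. Wounded leaves of this gene were thus above all controls at 2 h and below all controls at 24 h (log2 fold change -1.21 ± 0.20 in W24, adjusted p = 5.80e-05). MLOC_10369 had the same shape at a lower level, with 106.6, 156.1, 192.3 and 116.6 CPM in C, 278.2, 402.9, 436.8 and 276.5 CPM in W2, and 92, 55.9, 51.5 and 50.8 CPM in W24 (log2 fold change -1.30 ± 0.23 against C, adjusted p = 0.000179). In T24 against W24 both had positive values that were not called, 0.54 ± 0.20 for MLOC_18664 (adjusted p = 0.0233) and 0.34 ± 0.23 for MLOC_10369 (adjusted p = 0.219).

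Low counts set limits for part of the members. In C, 21 of 58 members had a mean under 5 CPM, and in O24 21 had a mean under 1 CPM. All 58 passed the filter on low counts of the test. Calls came from both levels, as 12 of the 37 members at 5 CPM or more in C and 6 of the 21 below it were lower in T24 than in T2, and 20 and 15 of them were lower in T24 than in W24. Of all genes tested, 3.26% were called lower in T24 than in T2 and 5.04% in T24 than in W24. Shares for other genes of like level were not taken. MLOC_74934, singled out after its values were seen, had 85 counts over the 4 control libraries, 850 over W2, 217 over W24, 26 over T24 and 0 over O24. Against a floor of 3 counts over the O24 group (0.0366 CPM), its control level was at least 21-fold higher, which covers counting error only.

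Other genes of the pathways that a damaged leaf is known to engage were taken from lists of Arabidopsis loci matched through the same pairing. In the abscisic acid and drought list, 5 of 6 genes were tested. Besides the dehydrin gene, which is the only member, ABF3 (MLOC_20326), a transcription factor of abscisic acid responses, was higher in W2 (log2 fold change 3.42, adjusted p = 8.46e-12) and had 0.43 in O24 (adjusted p = 0.175). ABA3 (MLOC_2170), which activates the last enzyme of abscisic acid synthesis, was higher in W2 (1.01, adjusted p = 5.24e-11) and had a positive value of 0.77 in O24 (adjusted p = 7.87e-09), too small in size for a call. OST1 (MLOC_22145), the kinase that closes stomata, was lower in O24 (-1.29, adjusted p = 1.97e-08), with -0.16 in W2 (adjusted p = 0.322). The dehydrin gene alone of this list was called in both directions of the choice. In T24 against T2, 1 of the 5 genes was lower and 1 higher, and in T24 against W24 2 were lower.

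Of 6 clock and light genes, 2 were higher in W2 and 4 lower in O24. One of them, BBX22 (MLOC_19814), a B-box factor of light responses, did both (1.29, adjusted p = 4.35e-07, and -1.33, adjusted p = 1.10e-06) and yet lay outside the members, which were chosen by untested CPM ratios. It was also lower in T24 (2.17 ± 0.22 CPM, SD, n = 4) than in T2 (4.54 ± 0.754 CPM, SD, n = 4, edgeR adjusted p = 1.68e-05) and than in W24 (log2 fold change -1.23, adjusted p = 1.41e-05). No other list held a member, but only the 4 members paired with an Arabidopsis locus could appear in a list. The lists therefore cannot tell which pathways the remaining members belong to. Of 3 jasmonate and wounding genes, 3 were higher in W2 and 2 in O24, and AOS (MLOC_21933), an enzyme of jasmonate synthesis, had log2 fold changes of 7.07 in W2 (adjusted p = 2.78e-10) and 6.78 in O24 (adjusted p = 4.36e-10). Of 5 heat and stress chaperone genes tested, 4 were higher in W2, 1 higher in O24 and 0 lower in O24. The one higher in O24, HSP17.6II (MLOC_32229), was near the floor, with means of 0.0457 CPM in C and 0.461 CPM in O24. The co-chaperone gene FES1A (MLOC_12937) was higher in W2 (4.13, adjusted p = 7.02e-17) and had -0.07 in O24 (adjusted p = 0.667). Of 9 gibberellin, cytokinin and brassinosteroid genes, 2 were lower in W2, with 1 higher and 2 lower in O24. Of 3 ethylene genes 1 was higher in W2 and 0 were called in O24, and of 2 cell wall expansion genes 2 were higher in W2 and 1 in O24. Both cell wall genes were near the floor in C, with means of 0.0104 CPM for XTH22 (MLOC_18499) and 0.136 CPM for EXPB3 (MLOC_16693). EXPB3, the one called in O24, had a mean of 0.609 CPM there.

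Photosynthesis transcripts moved with the groups as well. Of the 9 nuclear photosynthesis genes, 4 were lower in W2 and 8 lower in O24, with 3 lower in T24 than in T2 and 2 lower in T24 than in W24. Together they took 1.85% of counts in C, 1.41% in W24, 0.777% in T24, 0.739% in W2 and 0.405% in O24. They were below the control share in W2, where the members were above theirs, and their part in the members' values was not tested. Of 51 plastid-encoded genes tested, 18 were lower in O24, where 15.6% of all genes were called lower. In W2, T24 against C, T24 against T2 and T24 against W24, 0 of them were called. The libraries were made from poly(A) RNA, and how well they measure plastid transcripts was not tested.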

How the data were processed

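Leaf RNA of 28 samples was sequenced as stranded, paired-end poly(A) libraries, 1 enclosed leaf section per library. The authors aligned the reads to Ensembl barley genome ASM3268v1 with STAR (version 2.5.1b in the submitters' processing notes) and counted them per gene with HTSeq 0.6.0. The deposited values are raw counts, not normalized. The table had 0 rows that named no gene. Identifiers matched 0 entries of the RefSeq gene list used here.

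CPM used library totals. The main test was edgeR 4.0.16 in R 4.3.3 (filterByExpr by group, minimum count 10; TMM; robust quasi-likelihood fit over all 28 samples, 1 mean per group), and DESeq2 1.42.0 was an alternative. Adjusted p-values are Benjamini-Hochberg over 16948 genes within each contrast, in 7 contrasts outside the choice of members, and the scripts were tested on simulated data. The 42 replicate pairs differed by more than sampling noise (chi-square per gene 8.59 to 96.6, where 1 is noise).

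The members and gene lists were chosen with earlier results of these data known. Named genes were all members paired with an Arabidopsis locus and, of the others with at least 5 CPM in C, the 2 with the largest W2 ratio and the 2 called lower with the lowest T24 against T2 value. No test on gene sets was made, and gene positions and sequences were not used here. Alternatives were other scalings, filters, thresholds, fits and pseudocounts, DESeq2, a replicate block and leaving out each replicate.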

Additional observations from a re-analysis of the deposited data

Results flagged for a closer look

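For the 8 named members and the mean log2 change over all members, each group of 4 leaves was searched for a leaf whose gap to its neighbour was over Dixon's 95% limit as a share of the group's range. Of 63 groups searched 7 held such a leaf, and chance gives about 1 in 20, or 3.15. MLOC_1021 had 6.92 CPM in W2 replicate 3, above the 4.77 to 5.08 CPM of the other leaves, and 0.837 CPM in T24 replicate 1, below 1.16 to 1.19 CPM. MLOC_12684 had 6.48 CPM in T24 replicate 2, above 4.76 to 4.86 CPM. MLOC_57806 had 118.0 CPM in W24 replicate 4, below 160.5 to 168.6 CPM. MLOC_54205 had 47.2 CPM in W2 replicate 4, above 25.8 to 28.9 CPM. MLOC_56250 had 2.05 CPM in O24 replicate 3, below 4.9 to 5.24 CPM, and 11.8 CPM in T24 replicate 1, above 8.93 to 9.32 CPM. The mean over the members held no such leaf in any group.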

How the results depend on the processing

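The number of members was 32 with a stricter limit on both sides and 107 with limits of 0.8. It was 71 and 44 with pseudocounts of 0.25 and 1 CPM, and 86 with TMM-scaled CPM. It was 52 to 62 when a replicate of C, W2 or O24 was left out. All 58 members stayed with limits of 0.8 or a pseudocount of 0.25 CPM, and 57 stayed with TMM-scaled CPM. When a replicate was left out, the genes themselves could change more than their number. Without C replicate 2, 61 genes met the rule, and 50 of the 58 members were among them. Leaving out each replicate, 14 to 19 members were lower in T24 than in T2, 28 to 35 lower in T24 than in W24, 12 to 19 lower in T24 than in C, 5 to 9 higher and 2 to 3 lower in W24 than in C, and 0 to 2 lower in O2 than in C, with 5 in W24 without C replicate 4 or W24 replicate 3 and 2 in O2 without C replicate 2. Library totals alone gave 11 lower in T24 than in T2 and 10 lower in T24 than in C. That scaling moved the median of all genes by 0.19 in T24 against T2, 0.22 in T24 against C and 0.12 in W24 against C. In T2 against C, 1 member was higher with DESeq2 and 1 at an adjusted p under 0.05. For single genes, MLOC_3813 had -0.94 and MLOC_57806 -0.92 in T24 against T2 with library totals alone, and MLOC_57806 lost its call without T2 replicate 1 (-0.98) or without T24 replicate 4. The cause was not tested. Counts under 5 CPM limit precision for 21 members.

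The replicate block left 18 members lower in T24 than in T2 and 35 lower in T24 than in W24. Same-numbered samples had a mean correlation of deviations of 0.0757, and as this ran from -0.21 to 0.405 between pairs, the numbers were not taken as pairs. Against this, 16 of 28 samples correlated best with their own number, a hint from the data. The plants stood in randomized blocks, and the labels do not tie a number to a block.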
